A study of Mus musculus with 8 samples.

Results

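The mesenchymal programme was followed with 10 genes through 2 single-cell RNA libraries of differentiating mouse embryonic stem cells: the transcription factors Snai1, Snai2, Twist1, Twist2, Zeb1, Zeb2 and Prrx1, and the structural genes Vim, Cdh2 and Cdh11. They were taken as a fixed list of 10 of the 27998 gene rows of the count tables, and all 10 had a row and UMIs (unique molecular identifiers, 1 per captured RNA molecule) in both libraries. The cells descend from E14-NKX2-5-EmGFP, a mouse stem cell line derived from E14 with a green fluorescent reporter at the cardiac gene Nkx2-5. They were kept on mitomycin C-treated embryonic fibroblasts, then differentiated as embryoid bodies that formed in hanging drops without leukemia inhibitory factor, and were taken at day 5 with no treatment. One library is labelled WT (wild type) and the other TKO, the triple knockout of the Tet genes, whose products oxidise 5-methylcytosine in DNA. The comparison asks what Tet proteins do during cardiac differentiation. The other 6 samples of the series, DNA pull-downs from WT cells, were not analysed here. Whether the TKO line is 1 clone is not given in the sources used here, and 1 library per genotype leaves no replicate: clone, culture, library and genotype cannot be told apart, no test was possible, and every interval is a 95% interval that covers counting error only.

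In development, epithelial cells that leave a sheet switch from E-cadherin, the product of Cdh1, to N-cadherin, the product of Cdh2, and take up vimentin, a process called the epithelial to mesenchymal transition. Snail and Zeb proteins are zinc finger repressors that bind E-box motifs in epithelial genes, Twist proteins are basic helix-loop-helix factors, and Prrx1 is a homeobox factor of craniofacial, limb and lateral mesoderm. Gastrulating mesoderm of the mouse embryo makes this switch, and definitive endoderm, which also passes through the primitive streak, returns to an epithelial state.

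Promoter sequences are shown for Epcam, the epithelial adhesion gene used as the contrast, and for the 3 members whose paralogue balance differed most between the libraries and that had an entry in the promoter table. Each run holds the 250 bases before the annotated start in the RefSeq table for build GRCm38.p6, on the gene's own strand, and capitals mark the Snail and Zeb E-box, CACCTG or its reverse complement CAGGTG. The windows are chr17:87635729-87635978 for Epcam, chr2:167537945-167538194 for Snai1, chr12:33957421-33957670 for Twist1 and chr1:91801211-91801460 for Twist2, all on the plus strand and directly upstream of the first exon.
Epcam: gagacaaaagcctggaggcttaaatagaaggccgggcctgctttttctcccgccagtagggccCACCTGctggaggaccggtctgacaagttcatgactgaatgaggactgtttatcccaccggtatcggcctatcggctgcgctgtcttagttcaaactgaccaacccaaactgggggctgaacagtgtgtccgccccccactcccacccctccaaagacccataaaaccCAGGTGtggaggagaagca
Snai1: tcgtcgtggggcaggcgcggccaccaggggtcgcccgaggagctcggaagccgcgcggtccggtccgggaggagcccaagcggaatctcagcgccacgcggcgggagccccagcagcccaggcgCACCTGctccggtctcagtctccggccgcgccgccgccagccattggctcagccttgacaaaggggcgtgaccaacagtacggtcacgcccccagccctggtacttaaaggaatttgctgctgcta
Twist1: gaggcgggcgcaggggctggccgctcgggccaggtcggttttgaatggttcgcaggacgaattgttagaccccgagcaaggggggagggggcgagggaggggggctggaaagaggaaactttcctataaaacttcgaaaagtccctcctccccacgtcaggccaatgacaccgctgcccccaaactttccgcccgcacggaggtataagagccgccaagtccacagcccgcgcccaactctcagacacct
Twist2: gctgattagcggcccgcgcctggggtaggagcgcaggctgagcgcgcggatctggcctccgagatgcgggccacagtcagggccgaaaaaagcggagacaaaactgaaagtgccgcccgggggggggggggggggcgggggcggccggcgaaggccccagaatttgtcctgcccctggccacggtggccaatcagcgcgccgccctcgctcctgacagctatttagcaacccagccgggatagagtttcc
Epcam held 2 copies of the motif and Snai1 held 1. Of the 10 members, 6 had entries in the table (9 entries for Snai1, Twist1, Twist2, Zeb2, Vim and Prrx1), and Snai1 was the 1 gene of these with a match. The motif was present in 17.22% of all 32851 windows of the same length, so a match is a description of these letters and not evidence of binding. The Snai1 window held 27 CpG dinucleotides, the sites at which Tet enzymes can act, Twist2 held 23 and Twist1 held 18, against a median of 6 over all windows. The Epcam and Vim windows held 8 each and the Prrx1 window held 4. Snai2, Zeb1, Cdh2 and Cdh11 are named only.

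The WT-labelled library had 4389 kept cells with 37503810 UMIs (median 7847 per cell), and the TKO-labelled library had 3196 kept cells with 33483998 UMIs (median 9678 per cell). Reads of all Tet genes were present under both labels: Tet1 stood at 12.3 CPM (counts per 1000000 UMIs) under the WT label and 22.8 under the TKO label, Tet2 at 6.83 and 4.60, and Tet3 at 29.1 and 20.3. The deleted stretch is not given in the sources used here, so these totals do not check the label. The libraries also differed in make-up: markers of matrix-producing mesenchyme (7 collagen and matrix genes, none at 0) summed to 1032 CPM under the WT label and 6.27 CPM under the TKO label. Globin genes (7, none at 0) summed to 7765 and 277 CPM, definitive endoderm markers (8, none at 0) to 68.9 and 841 CPM, and head mesoderm markers (6, none at 0) to 28.1 and 109 CPM. Doublets could not be removed with any confidence, since the caller marked 3 and 1 cells.

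The members did not move as a block between the libraries. Of the 10, 4 stood at least 2-fold higher in the WT-labelled library (Snai2, Twist2, Vim and Cdh11), against 12.6% of all 15344 genes with at least 10 UMIs. A further 2 stood at least 2-fold higher in the TKO-labelled library (Twist1 and Prrx1), against 13.7% of all genes. The median log2 ratio of the members, TKO-labelled over WT-labelled, was -0.56, and that of all genes was 0.14.

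Among the Snail genes, Snai2 carried the difference. Snai2, the Slug repressor, had 4806 UMIs in the WT-labelled library, a level of 128 CPM (interval 125 to 132), and 580 UMIs or 17.3 CPM (15.9 to 18.8) in the TKO-labelled library, so it was 7.40-fold higher under the WT label (6.79 to 8.08). Snai1, the founding Snail repressor and an early gene of gastrulation, had 388 UMIs (10.3 CPM, 9.34 to 11.4) and 477 UMIs (14.2 CPM, 13.0 to 15.6), 1.38-fold higher under the TKO label (1.20 to 1.58). The paralogues thus stood on opposite sides, each by more than its counting error.

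The Twist genes showed the same opposition. Twist2 had 2716 UMIs (72.4 CPM, 69.7 to 75.2) under the WT label and 523 UMIs (15.6 CPM, 14.3 to 17.0) under the TKO label, and was 4.64-fold higher under the WT label (4.22 to 5.10). Twist1, the Twist gene needed for cranial mesenchyme, had 643 UMIs (17.1 CPM, 15.8 to 18.5) and 1225 UMIs (36.6 CPM, 34.6 to 38.7), 2.13-fold higher under the TKO label (1.94 to 2.35). The Twist1 ratio is close to the 2-fold line: with the median of all genes set to no change it was 1.94, and without globin-gated cells it was also 1.94.

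The Zeb pair differed least. Zeb1 stood at 39.3 CPM (1474 UMIs) under the WT label and 27.6 CPM (925 UMIs) under the TKO label, a ratio of 0.703 (0.647 to 0.764). Zeb2 stood at 38.0 CPM (1425 UMIs) and 24.7 CPM (828 UMIs), a ratio of 0.651 (0.597 to 0.710). Both were lower under the TKO label by more than counting error, and neither by 2-fold. Noncoding genes, Zeb2os and Gm10125, are annotated at these loci, and whether the counting used strand is not given in the sources used here, so any antisense reads cannot be told apart from those of Zeb1 and Zeb2.

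Prrx1 was the member with the largest ratio under the TKO label. It had 76 UMIs (2.03 CPM) under the WT label and 488 UMIs (14.6 CPM) under the TKO label, 7.19-fold higher under the TKO label (5.64 to 9.28). Its relative Prrx2, a homeobox gene of related mesenchyme, stood at 108 and 97.2 CPM, a ratio of 0.903.

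Of the structural members, vimentin and cadherin 11 were higher under the WT label and N-cadherin was not. Vim, the intermediate filament of mesenchymal cells, had 30551 UMIs (815 CPM) with the WT label and 8810 UMIs (263 CPM) with the TKO label, 3.10-fold higher under the WT label (3.02 to 3.17). Cdh11, the cadherin of loose mesenchyme, stood at 50.8 and 19.5 CPM, 2.60-fold higher under the WT label (2.38 to 2.85). Cdh2 stood at 31.4 and 42.9 CPM, 1.37-fold higher under the TKO label (1.26 to 1.48), while Cdh1, its epithelial counterpart, stood at 4.59 and 63.2 CPM, 13.8-fold higher under the TKO label (11.8 to 16.2).

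**Figure D1:**
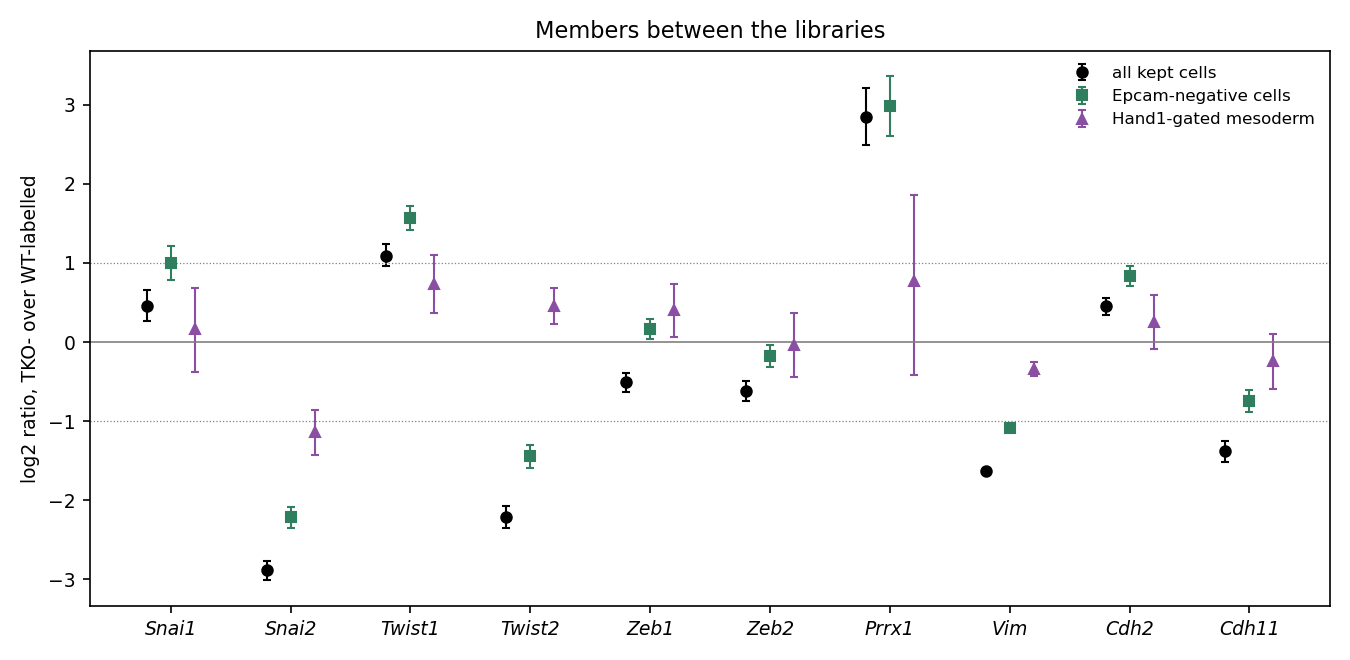
Log2 ratio of the TKO-labelled over the WT-labelled library for each member (y axis) in all kept cells (circles), in cells with no Epcam UMI (squares) and in Hand1-gated mesoderm (triangles), with 95% counting intervals and dotted lines at 2-fold. Snai2 and Prrx1 lie farthest from 0 in all cells, at 0.135 and 7.19 as plain ratios, and 9 of the 10 members lie within 2-fold in Hand1-gated mesoderm.

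Cells were then divided by Epcam, taking 2 or more UMIs as positive and none as negative. Positive cells numbered 172 of 4389 (3.92%, exact Clopper-Pearson interval 3.36 to 4.54) under the WT label and 1100 of 3196 (34.4%, 32.8 to 36.1) under the TKO label, at median depths of 8584.5 and 11417.5 UMIs. Negative cells numbered 4110 and 1807, at medians of 7830 and 8820 UMIs. The positive classes were not alike by the marker-gated kinds described below. Of the 172 WT-labelled cells 94 were of the visceral endoderm kind, and of the 1100 TKO-labelled cells 563 were of the definitive endoderm kind. Cells set apart for meeting several gates are not in these numbers.

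In the WT-labelled library 8 of the 10 members were at least 2-fold higher in Epcam-negative than in Epcam-positive cells, against 12.3% of 13942 genes. The others were Snai1 and Prrx1, of which Prrx1 had 76 UMIs in negative and none in positive cells, too few for a call. In the TKO-labelled library 9 of the 10 were, against 8.45% of 13847 genes. The members' median log2 ratio, positive over negative, was -3.08 under the WT label and -2.0 under the TKO label, and the medians of all genes were -0.08 and -0.01. In the WT-labelled library the negative-to-positive ratio ran from 1.61 for Snai1 (0.892 to 3.26, not distinguishable from 1 at this depth) and 2.00 for Cdh2 (1.37 to 3.05) to 21.3 for Twist2 (9.77 to 58.1), with Twist1 at 30.2 on the strength of a single UMI in positive cells (5.39 to 1193). In the TKO-labelled library it ran from 1.76 for Prrx1 (1.43 to 2.18) and 2.58 for Cdh2 (2.27 to 2.95) to 15.2 for Twist2 (10.2 to 23.8).

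Within the TKO-labelled library, the paralogues of each pair kept different shares of their level in the epithelial class. In the TKO-labelled library Snai2 stood at 29.2 CPM in negative and 2.52 CPM in positive cells, and Twist2 stood at 28.2 and 1.85 CPM. Snai1 stood at 21.4 and 6.00 CPM there, and Twist1 stood at 53.8 and 15.4 CPM. The positive level was thus 8.63% of the negative one for Snai2 and 6.57% for Twist2, but 28.1% for Snai1 and 28.6% for Twist1. Zeb1 and Zeb2 split as well: Zeb1 in positive cells stood at 9.74% of its negative level, 46.3 CPM, and Zeb2 at 27.6% of its negative level, 35.7 CPM. The WT-labelled library, with 20 UMIs or fewer of each of these genes in positive cells, did not repeat this for the Twist and Zeb pairs. The positive level there was 3.32% of the negative one for Twist1 and 4.70% for Twist2, 10.1% for Zeb1 and 5.96% for Zeb2, and 62.0% for Snai1 and 8.88% for Snai2.

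Between the libraries, within Epcam-positive cells, Twist1 stood at 0.601 CPM (1 UMI) in WT-labelled and 15.4 CPM (208 UMIs) in TKO-labelled cells, a ratio of 25.6 (4.55 to 1017). Prrx1 had no UMI in WT-labelled and 132 UMIs (9.77 CPM) in TKO-labelled positive cells, at least 5.42-fold higher when 3 UMIs over the class are taken as the floor. Zeb2 stood at 2.40 and 9.85 CPM, a ratio of 4.10 (1.56 to 15.3). Snai2 was lower under the TKO label, at 12.0 and 2.52 CPM (ratio 0.209, 0.117 to 0.384), as was Vim, at 167 and 91.1 CPM (0.545, 0.478 to 0.623). The difference for Snai1, Twist2, Zeb1, Cdh2 and Cdh11 in positive cells was not detectable at this depth.

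Within Epcam-negative cells the libraries differed for every member by more than counting error. Snai2 stood at 135 CPM in WT-labelled and 29.2 CPM in TKO-labelled negative cells, Twist2 at 76.7 and 28.2, and Vim at 855 and 404, the 3 members at least 2-fold higher under the WT label (12.6% of 14578 genes). Prrx1 stood at 2.18 and 17.2 CPM, Twist1 at 18.1 and 53.8, and Snai1 at 10.7 and 21.4, the 3 at least 2-fold higher under the TKO label (11.8% of genes). Snai1 lay at the line, with a ratio of 2.00 (1.73 to 2.32). Zeb1 was now slightly higher under the TKO label, with a ratio of 1.12 (1.02 to 1.22), and Zeb2 slightly lower, with 0.885 (0.804 to 0.975). The members' median log2 ratio was -0.01 in these cells, and that of all genes was 0.12, a shift close in size to the Zeb1 difference.

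**Figure D2:**
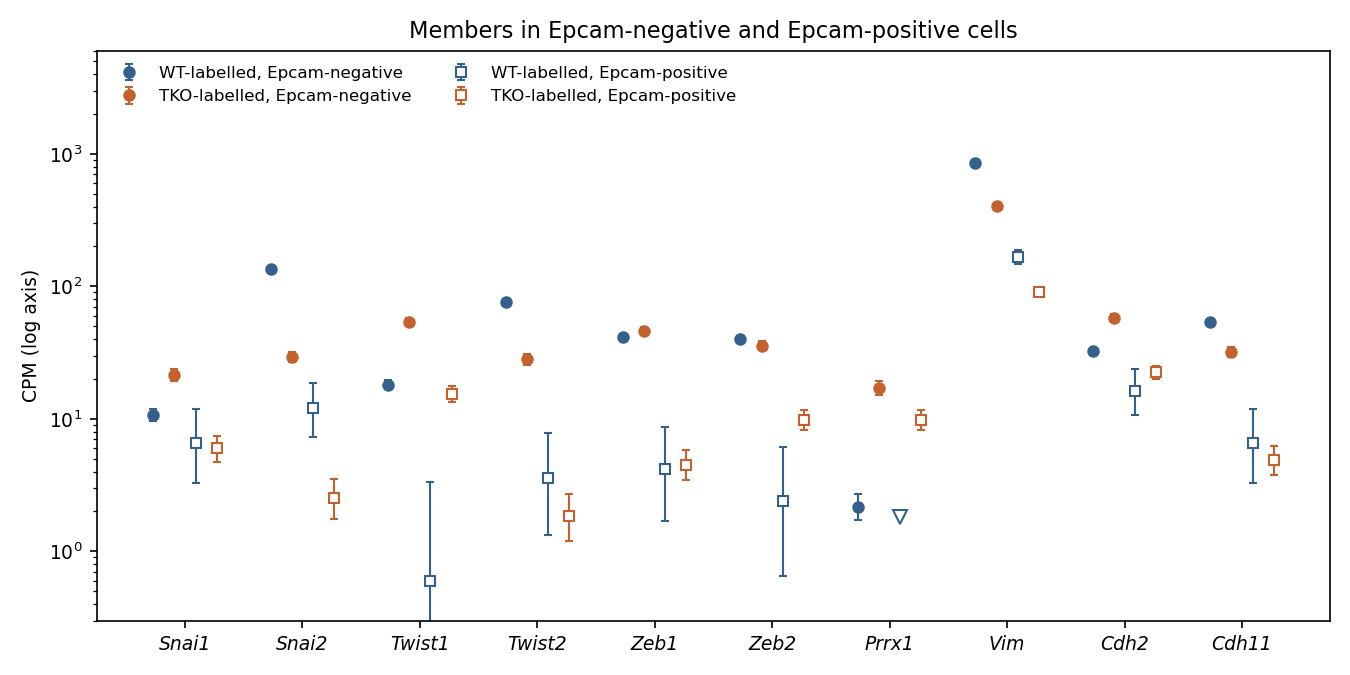
CPM of each member (log axis) in Epcam-negative cells (filled circles) and Epcam-positive cells (open squares) of the WT-labelled (blue) and TKO-labelled (orange) libraries, with 95% counting intervals; the triangle marks the floor of 3 UMIs for Prrx1, which had none in WT-labelled positive cells. Of the factors, Twist1, Zeb2 and Prrx1 are highest in TKO-labelled positive cells, at 15.4, 9.85 and 9.77 CPM. In WT-labelled positive cells they have 1, 4 and 0 UMIs.

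The contrast depends on where the Epcam line is drawn. With a single Epcam UMI taken as positive, the WT-labelled ratio was 4.24 for Snai2, 4.33 for Twist1, 5.04 for Twist2, 3.89 for Zeb1, 5.89 for Zeb2, 3.10 for Vim and 4.03 for Cdh11, and in the TKO-labelled library it was 5.61 for Snai2, 10.1 for Twist2 and 5.48 for Zeb1. With the cells of the highest 6% of doublet scores left out, the ratio was 28.9 for Snai2 in the WT-labelled library and 32.0 for Twist2 in the TKO-labelled library, above 11.3 and 15.2. The side of the difference did not change for any of these.

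Cells were next gated by markers that are not members, and 18 kinds with at least 20 cells were compared, 9 from each library. A kind is named for the markers that gate it and is not an identified cell type. Hand1 mesoderm (2 or more UMIs of Hand1 and no other gate) comprised 898 cells with the WT label and 178 with the TKO label, and the endothelial kind 190 and 53. Matrix mesenchyme had 2013 cells under the WT label and 4 under the TKO label, head mesoderm 12 and 397, cardiac progenitor (Isl1 with Mef2c) 4 and 272, contractile cells 20 and 196, and definitive endoderm 44 and 681. Genes kept out of the gates were well above the library level in endothelial, globin and endoderm kinds but only slightly above it in matrix mesenchyme, and in contractile cells the sarcomere gene Myom1 was above it in both libraries. Tnnc2 and Cmya5, also kept out of the contractile gate, were at 0 there and near 0 in the whole libraries. In pluripotent cells Dnmt3b and Sox2 were above the library level in both libraries. Lin28a was below it in the WT-labelled ones, at 24.1 against 45.3 CPM. No genes were kept out as a check for head mesoderm, mesothelium, neural plate, Hand1 mesoderm or cardiac progenitor cells, so these kinds were not checked in this way. A further 246 WT-labelled and 747 TKO-labelled cells met no gate, and 338 and 158 met several. Neither group is in the rankings of kinds below. In the TKO-labelled cells with no gate Cdh2 stood at 64.5 CPM, Twist1 at 54.7 and Prrx1 at 21.2.

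Snai2 was highest in mesodermal kinds of the WT-labelled library. Its level was highest in WT-labelled matrix mesenchyme, 179 CPM (173 to 186), then in WT-labelled Hand1 mesoderm, 135 CPM (126 to 144), and WT-labelled mesothelium, 126 CPM (96.7 to 161), which did not differ from each other beyond counting error. WT-labelled contractile cells followed at 82.6 CPM (12 UMIs), then TKO-labelled Hand1 mesoderm at 61.2, contractile cells at 42.4, head mesoderm at 27.3 and cardiac progenitor cells at 25.2. Every other kind was at 13.6 CPM or lower, and TKO-labelled pluripotent cells were lowest at 0.849. The 4 highest kinds were all WT-labelled, but the level in the 20 WT-labelled contractile cells did not differ beyond counting error from that in TKO-labelled Hand1 mesoderm.

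Snai1 ordered them differently. TKO-labelled head mesoderm was highest, at 41.5 CPM (35.5 to 48.2), above the next kind beyond counting error. TKO-labelled and WT-labelled Hand1 mesoderm came next, at 20.9 and 18.6 CPM, and did not differ from each other. TKO-labelled cardiac progenitor cells followed at 13.6 CPM and WT-labelled matrix mesenchyme, which held 51.0% of all WT-labelled Snai1 UMIs and 45.6% of the library's UMIs, at 11.6 CPM. In TKO-labelled contractile cells Snai1 stood at 4.24 CPM although Snai2 stood at 42.4.

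Twist1 was led by the same kind. TKO-labelled head mesoderm had 76.5 CPM (68.4 to 85.4), then TKO-labelled Hand1 mesoderm, cardiac progenitor and contractile cells had 48.1, 47.1 and 44.6 CPM, which did not differ from each other beyond counting error. WT-labelled contractile cells came next at 41.3 CPM (15.2 to 89.9), then TKO-labelled endothelial cells at 36.3, neither apart from its neighbours. WT-labelled Hand1 mesoderm stood at 28.9 CPM and matrix mesenchyme at 17.5. Twist1 was still at 20.8 CPM in TKO-labelled cells positive for Epcam with no other gate, at 13.0 in definitive endoderm and at 10.2 in pluripotent cells. WT-labelled visceral and definitive endoderm had no UMI, and the floor of 3 UMIs is 2.35 and 8.45 CPM there.

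Twist2 had its peak elsewhere. TKO-labelled Hand1 mesoderm was highest at 117 CPM (102 to 133), ahead of WT-labelled matrix mesenchyme at 100.2 CPM (95.5 to 105.0) and WT-labelled Hand1 mesoderm at 84.7 CPM (78.0 to 91.9), the first and the second each above the next beyond counting error. TKO-labelled contractile cells had 44.0 CPM and cardiac progenitor cells 15.2, and head mesoderm, where Twist1 peaked, had 7.92 CPM (5.45 to 11.1). The Twist2 level in head mesoderm moved with the gate, to 16.0 CPM with 1 marker fewer and 3.18 CPM with 1 marker more. The 178 TKO-labelled Hand1 mesoderm cells held 42.6% of that library's Twist2 UMIs and 5.71% of its UMIs.

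Zeb1 was highest in the endothelial cells of both libraries, and Zeb2 in those of the WT-labelled library. Zeb1 stood at 87.8 CPM (66.7 to 114) in TKO-labelled and 76.5 CPM (63.2 to 91.8) in WT-labelled endothelial cells, which did not differ from each other. The mesodermal kinds other than mesothelium followed within 42.0 to 55.4 CPM, with no neighbours apart beyond counting error. Zeb2 stood at 69.9 CPM (57.2 to 84.5) in WT-labelled endothelial cells, 54.0 in the 30 TKO-labelled neural plate cells (33.4 to 82.5), 42.8 in WT-labelled matrix mesenchyme (39.8 to 46.1) and 39.4 in TKO-labelled endothelial cells (25.7 to 57.7), and no neighbours in that order were apart beyond counting error. Zeb2 was also at 23.8 CPM in TKO-labelled pluripotent and 21.7 in globin-gated WT-labelled cells, where Zeb1 was at 8.07 and 12.5 CPM. In TKO-labelled definitive endoderm both were low, at 2.84 CPM for Zeb1 and 5.16 for Zeb2.

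Prrx1 was highest in TKO-labelled kinds. Head mesoderm had 28.3 CPM (23.4 to 33.9), cardiac progenitor cells 17.2 (12.4 to 23.1), Epcam-positive cells with no other gate 13.5 (9.70 to 18.3) and definitive endoderm 12.4 (10.0 to 15.1), with head mesoderm above the next kind beyond counting error and the last 3 not apart from each other in that order. TKO-labelled Hand1 mesoderm, the site of the highest Twist2, had 5.75 CPM (2.87 to 10.3), and pluripotent cells of the same library had 0.849 (0.103 to 3.07). WT-labelled kinds ran from no UMI (visceral and definitive endoderm, mesothelium, contractile and pluripotent cells) to 3.38 CPM in Hand1 mesoderm.

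At an equal depth of 4000 UMIs per cell, Prrx1 was detected in 12.2% of 384 TKO-labelled head mesoderm cells (9.13 to 15.9; 22.4% unthinned) and 4.92% of 651 definitive endoderm cells (3.39 to 6.87; 9.69% unthinned). It was detected in 1.27% of 157 pluripotent cells of that library (0.155 to 4.53; 1.27% unthinned). Their median depth was 14773 UMIs against 10694 in definitive endoderm and 9768 in head mesoderm. The pluripotent kind had the lowest Prrx1 level of the compared TKO-labelled kinds, so it is not an independent background. The pluripotent and definitive endoderm intervals overlap. In globin-gated WT-labelled cells a Prrx1 UMI was found in 0 of 351, which allows a share of cells with a UMI of up to 0.855% when 3 counts are taken as the limit.

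Vim was highest in endothelial cells of both libraries, at 1644 CPM (1580 to 1710) in WT-labelled and 1078 CPM (1000 to 1160) in TKO-labelled cells. WT-labelled matrix mesenchyme followed at 1004 CPM, Hand1 mesoderm at 813 and TKO-labelled Hand1 mesoderm at 641. TKO-labelled head mesoderm, with the highest Snai1, Twist1 and Prrx1, had 272 CPM of Vim, lower than the TKO-labelled cardiac progenitor and contractile cells at 432 and 414. Globin-gated WT-labelled cells were lowest, at 43.1 CPM.

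Cdh2 and Cdh11 parted in contractile cells. Of the compared kinds, Cdh2 was highest in TKO-labelled contractile, cardiac progenitor and head mesoderm cells. These stood at 63.7, 60.7 and 60.7 CPM, with no difference beyond counting error. TKO-labelled cells with no gate, which are not ranked, stood at 64.5 CPM (58.2 to 71.3). Cdh2 stayed at 27.6 CPM (24.0 to 31.6) in TKO-labelled definitive endoderm. Cdh11 was highest in WT-labelled matrix mesenchyme, at 70.4 CPM (66.5 to 74.5), then in WT-labelled Hand1 mesoderm at 53.9, TKO-labelled head mesoderm at 50.1 and Hand1 mesoderm at 45.5, with matrix mesenchyme above the next kind beyond counting error and the last 3 not apart from each other in that order. It was at 12.2 CPM in TKO-labelled contractile cells and at 1 UMI in the endothelial cells of each library, where a gate with 1 marker fewer gave 4.60 CPM in WT-labelled and 13.7 CPM in TKO-labelled cells.

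**Figure D3:**
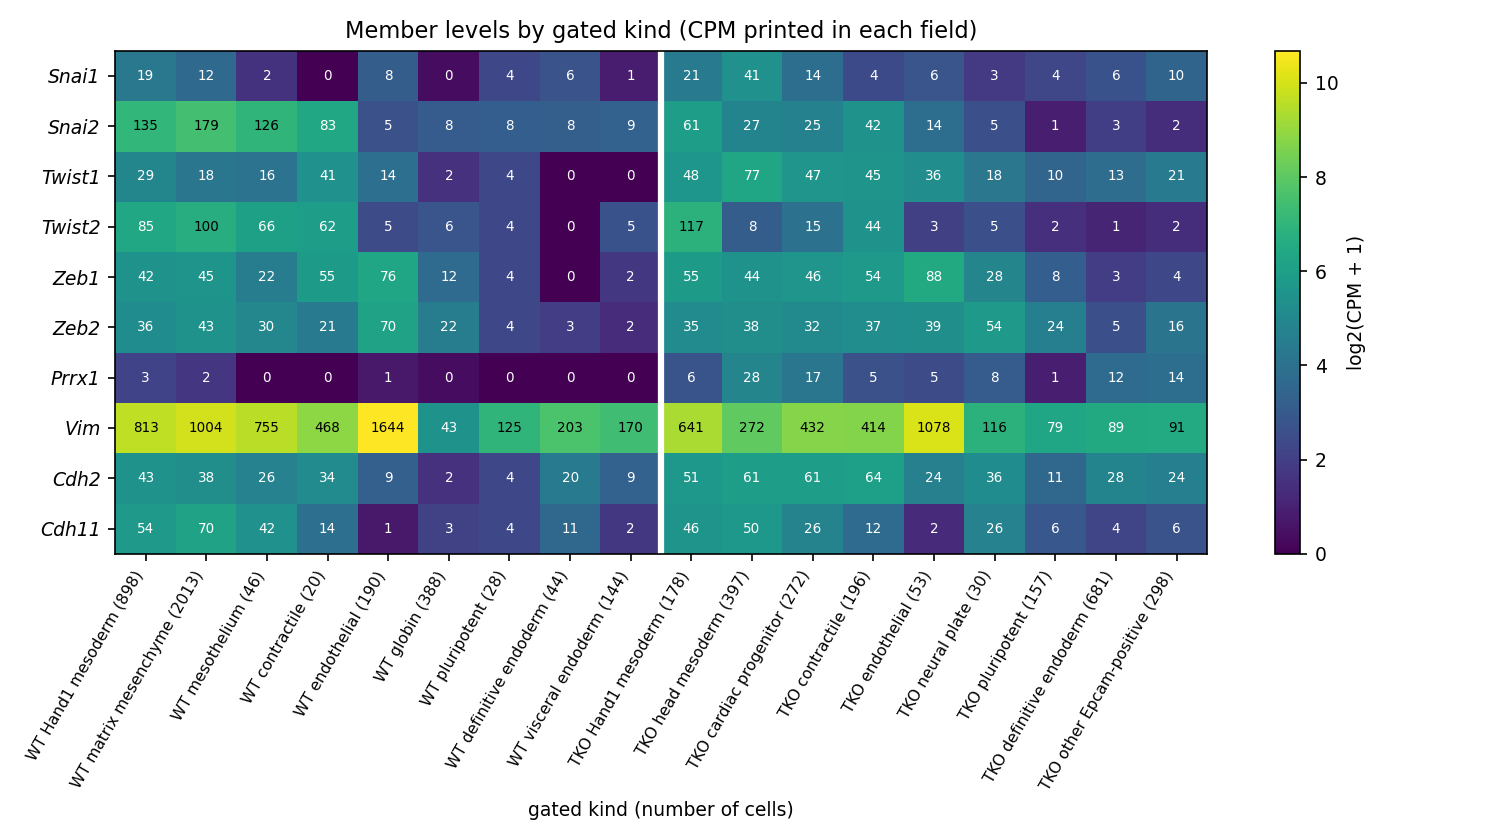
CPM of the members (rows) in the 18 gated kinds with at least 20 cells (columns, cell numbers in brackets), 9 WT-labelled kinds left of the white line and 9 TKO-labelled kinds right of it, coloured by log2(CPM + 1). Snai2 is highest in the WT-labelled mesodermal kinds, Twist1, Snai1 and Prrx1 in TKO-labelled head mesoderm, and Vim and Zeb1 in endothelial cells.

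Within Hand1 mesoderm, which both libraries held in number, the differences were smaller than in the whole libraries. This did not hold for cells with no gate, given below. In Hand1 mesoderm, 1 member of the 10 was at least 2-fold higher under the WT label, Snai2 (9.11% of 11488 genes), and none was under the TKO label (6.19% of genes). Snai2 stood at 135 and 61.2 CPM there, a ratio of 0.455 (0.372 to 0.552), and Vim at 813 and 641 CPM, a ratio of 0.788 (0.740 to 0.838). Twist1 stood at 28.9 and 48.1 CPM, a ratio of 1.66 (1.28 to 2.14), Twist2 at 84.7 and 117 CPM, a ratio of 1.38 (1.17 to 1.61), and Zeb1 at 42.0 and 55.4 CPM, a ratio of 1.32 (1.05 to 1.65). Twist2 therefore stood higher under the TKO label in this kind and lower in the whole library. Cells with Hand1 that met the matrix mesenchyme gate are not in this kind. That gate was met by 2339 WT-labelled and 4 TKO-labelled cells, so the kind may be cut differently in the libraries. The part of this in the ratios was not tested. The differences of Snai1, Zeb2, Prrx1, Cdh2 and Cdh11 were not detectable at this depth, and the median log2 ratio of the members was 0.22 beside 0.12 for all genes.

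In endothelial cells Twist1 stood at 13.8 and 36.3 CPM, a ratio of 2.62 (1.40 to 4.96), and Cdh2 at 8.57 and 24.2 CPM, a ratio of 2.83 (1.27 to 6.39). Zeb2 had a ratio of 0.563 (0.352 to 0.871) and Vim one of 0.656 (0.602 to 0.713). In cells with no gate the differences were larger than in Hand1 mesoderm for several members. The ratio there was 3.86 for Snai1 (1.90 to 9.14) and 4.02 for Prrx1 (1.98 to 9.51). For Cdh2 it was 2.50 (1.80 to 3.58) and for Twist1 2.07 (1.49 to 2.95). Snai2 had a ratio of 0.408 (0.311 to 0.537) and Twist2 one of 0.415 (0.297 to 0.584). Zeb1, Zeb2, Vim and Cdh11 were within 2-fold there. In contractile cells Twist1 stood at 41.3 CPM (6 UMIs) and 44.6 CPM (84 UMIs), a ratio of 1.08 (0.475 to 3.02), and a difference was not detectable at this depth.

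The part of the WT-labelled matrix mesenchyme in the library ratios was measured by leaving out every cell that met its gate. These were 2339 WT-labelled and 4 TKO-labelled cells, including those that also met other gates. Without those cells the TKO-labelled over WT-labelled ratio of Snai2 was 0.247 in place of 0.135. That of Twist2 was 0.352 in place of 0.216, and that of Cdh11 0.685 in place of 0.384. Among the members, 3 remained at least 2-fold higher under the WT label. The share of all genes past 2-fold was not computed without those cells, so this count has no background beside it. Twist1 at 2.11 and Prrx1 at 7.06 moved little. The 2013 WT-labelled cells that met this gate alone held 63.8% of the library's Snai2 UMIs and 63.1% of its Twist2 UMIs. A UMI of the proliferation gene Mki67 was found in 33.4% of them and in 28.6% of WT-labelled Hand1 mesoderm cells. Xist, the noncoding RNA of female cells, had 2 UMIs in those 2013 cells. The fibroblast genes S100a4 and Thy1, at 3.12 and 0.773 CPM in the whole WT-labelled library, stood at 3.92 and 1.05 CPM in them. The part of feeder fibroblasts in these cells was not tested.

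The balance within a pair of paralogues is given as the share of the pair's UMIs, which compares cells and not the 2 genes, since capture can differ between genes. Snai1 made up 7.47% of Snai1 and Snai2 UMIs in the WT-labelled (6.77 to 8.22) and 45.1% in the TKO-labelled library (42.1 to 48.2). Twist1 made up 19.1% of its pair (17.8 to 20.5) and 70.1% (67.9 to 72.2). Zeb1 made up 50.8% (49.0 to 52.7) and 52.8% (50.4 to 55.1), intervals that overlap. In Epcam-negative cells the Zeb1 share was 50.7% (48.8 to 52.5) and 56.5% (53.8 to 59.1), intervals that do not.

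The Twist balance differed between the libraries in some kinds and not in others. In Hand1 mesoderm the Twist1 share was 25.5% in WT-labelled (22.4 to 28.7) and 29.2% in TKO-labelled cells (24.2 to 34.6), intervals that overlap. In cells with no gate it was 40.4% (30.7 to 50.7) and 77.2% (72.9 to 81.1), in cells that met several gates 17.0% (13.1 to 21.5) and 73.9% (63.4 to 82.7), and in all Epcam-negative cells 19.1% (17.8 to 20.5) and 65.6% (63.1 to 68.1), each apart. In TKO-labelled head mesoderm it was 90.6% (87.1 to 93.5), in contractile cells 50.3% (42.5 to 58.1) and in definitive endoderm 91.8% (85.0 to 96.2). In endothelial cells it was 75.0% in WT-labelled (28 UMIs, 55.1 to 89.3) and 92.3% in TKO-labelled cells (26 UMIs, 74.9 to 99.0). The Snai1 share in Hand1 mesoderm was 12.2% in WT-labelled (10.2 to 14.3) and 25.5% in TKO-labelled cells (18.9 to 33.0), apart beyond counting error. It was 60.3% in TKO-labelled head mesoderm (54.4 to 66.0) and 9.09% in TKO-labelled contractile cells (4.01 to 17.1).

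**Figure D4:**
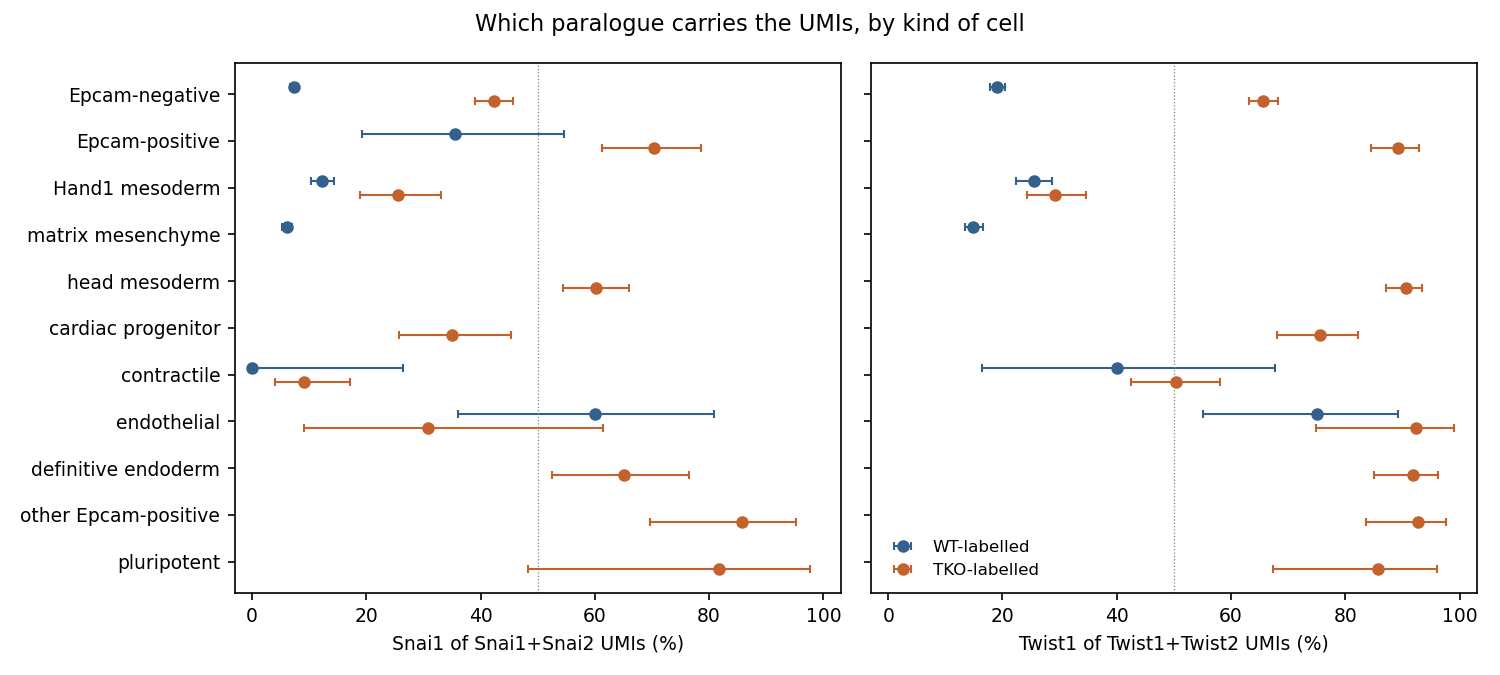
Share of the pair's UMIs that Snai1 (left panel) or Twist1 (right panel) carries in each kind of cell (rows), for the WT-labelled (blue) and TKO-labelled (orange) library with exact 95% intervals; rows with under 10 UMIs of the pair have no point. The Twist1 share overlaps between the libraries in Hand1 mesoderm, at 25.5% and 29.2%, and is 90.6% in TKO-labelled head mesoderm.

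To see how many members a single cell carried, each cell was thinned to 4000 UMIs, leaving out 372 WT-labelled and 190 TKO-labelled cells below that depth. At least 3 of the 10 members were detected in 36.5% of the 4017 cells with the WT label (35.1 to 38.1; 61.0% unthinned) and in 16.3% of the 3006 with the TKO label (15.0 to 17.7; 39.4% unthinned). No member was detected in 12.4% of WT-labelled and 33.1% of TKO-labelled cells. Among Epcam-negative cells 3 or more members were found in 38.7% (64.0% unthinned) and 25.9% (57.4% unthinned), and among Epcam-positive cells in 2.40% (5.23% unthinned) and 1.40% (10.8% unthinned). The background share, from WT-labelled globin-gated cells at a median of 9360 UMIs, was 0.285% of 351 cells (4.38% unthinned).

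By kind the share with 3 or more members was 47.8% in WT-labelled matrix mesenchyme (77.3% unthinned), 44.1% in WT-labelled and 37.7% in TKO-labelled Hand1 mesoderm (70.5% and 85.4% unthinned), 30.5% in TKO-labelled head mesoderm (71.0% unthinned) and 8.88% in WT-labelled endothelial cells (30.0% unthinned). The Hand1 mesoderm intervals overlap, 40.7 to 47.6 and 30.5 to 45.3. Vim carried much of the count: over the other 9 members the share with 3 or more was 14.3% in WT-labelled and 6.62% in TKO-labelled cells, and in the WT-labelled endothelial cells it was 0.592%.

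Detection of members in the same cell was counted in Epcam-negative cells outside the globin gate, of which 3404 WT-labelled and 1668 TKO-labelled cells were deep enough. Every pair of members was examined in each library, and for most pairs the intervals overlapped. Only some of the pairs that stood apart are given, and the intervals were not widened for the number of pairs. In the 34 WT-labelled cells with a Prrx1 UMI, Twist1 was found in 41.2% (24.6 to 59.3) and in 6.11% of the other cells (5.33 to 6.98), Cdh2 in 32.4% and 12.2%, and Vim in 67.6% and 89.2%. In the 115 TKO-labelled cells with a Prrx1 UMI the intervals overlapped for all of these, with Twist1 in 20.0% (13.1 to 28.5) and 16.4% (14.5 to 18.3), Cdh2 in 27.8% and 20.0%, and Vim in 70.4% and 67.0%. In the 277 TKO-labelled cells with a Twist1 UMI, Cdh11 was found in 16.6% (12.4 to 21.5) and in 10.1% of the others (8.53 to 11.8), while in the 220 such WT-labelled cells it was found in 22.3% (17.0 to 28.4) and in 21.4% of the others (19.9 to 22.8). For Snai2 and Twist2, the members most alike over kinds, the intervals overlapped in both libraries. Twist2 was in 30.1% of WT-labelled cells with Snai2 and in 26.9% of those without, and in 12.7% and 8.52% of TKO-labelled cells. Overlap of separate intervals does not exclude a difference beyond counting error. These shares come from cells of 1 library and mix kinds, and sparse counts hide most joint expression.

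Cdh1 and Cdh2 were rarely caught in the same thinned cell. Both were found in 2 of the 4017 cells with the WT label (0.0498%, 0.00603 to 0.180) and in 48 of the 3006 with the TKO label (1.60%, 1.18 to 2.11). Of the 48, 31 were of the definitive endoderm kind, where the share was 4.76% of 651 cells (3.26 to 6.69). Cdh2 alone was in 10.9% of WT-labelled and 14.4% of TKO-labelled cells, and Cdh1 alone in 1.42% and 15.2%. Over all thinned cells Cdh2 was in 10.98% and 15.97% (20.0% and 31.4% unthinned) and Cdh1 in 1.47% and 16.8% (2.44% and 30.6% unthinned). In globin-gated WT-labelled cells Cdh2 was in 0.855% and Cdh1 in 0 of 351 cells. Doublets were not removed, and their part in the cells with both cadherins was not tested.

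**Figure D5:**
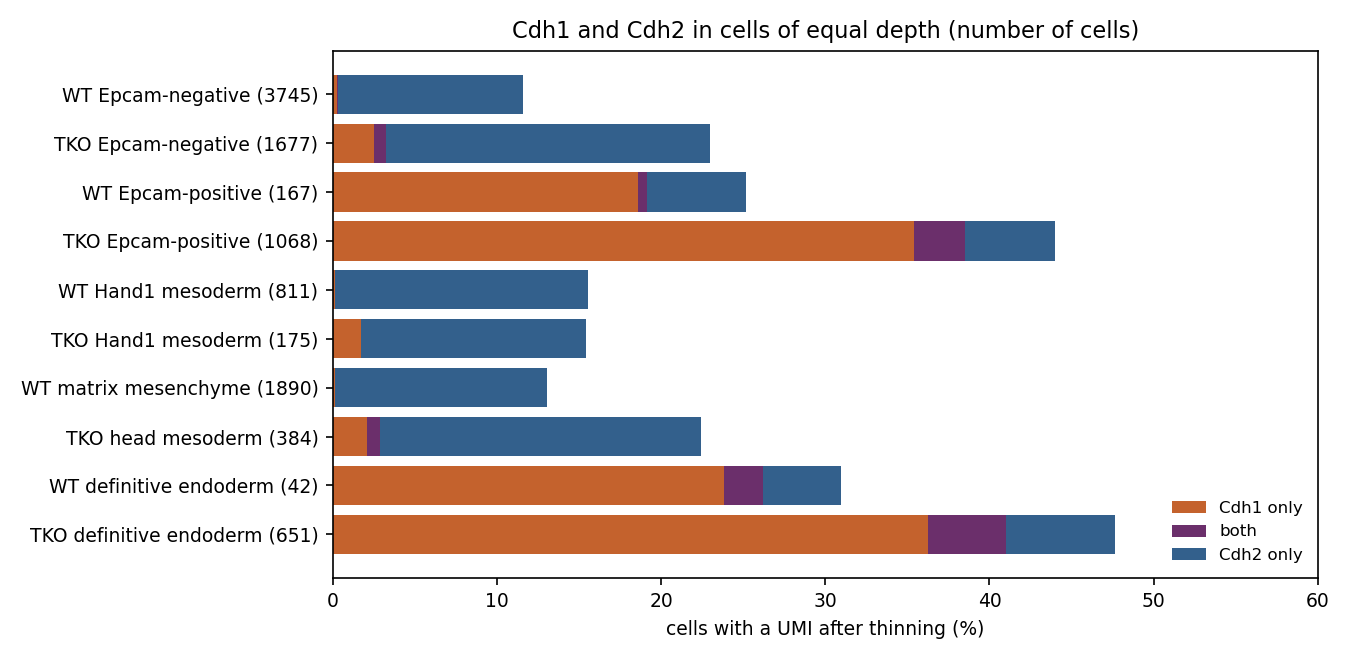
Share of cells (x axis, %) with a UMI of Cdh1 only (orange), of both (purple) or of Cdh2 only (blue) after thinning to 4000 UMIs, by library and kind with cell numbers in brackets. Cells with both make up 4.76% of TKO-labelled definitive endoderm and 0.78% of TKO-labelled head mesoderm, and none of the thinned Hand1 mesoderm cells of either library.

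Genes around the members were counted from lists, by the same 2-fold line between the libraries, at which 12.6% of all genes were higher under the WT label and 13.7% under the TKO label. The median log2 ratio, TKO-labelled over WT-labelled, was 1.99 for epithelial adhesion and polarity, 2.21 for epithelial factors, -1.65 for mesenchymal effectors and 0.14 for all genes. It was 0.67 for relatives of the factors, -0.23 for TGF-beta and BMP genes, 0.36 for corepressors, 0.33 for cadherins and catenins and -0.12 for intermediate filaments. Of 27 epithelial adhesion and polarity genes, 18 were higher under the TKO label and 1 under the WT label: the tight junction genes Cldn6 (30.1 and 313 CPM) and Marveld2 (1.28 and 13.8 CPM) were among the former, and the polarity gene Pard6b (52.5 and 22.9 CPM) was the latter. Of 11 epithelial transcription and splicing factors, 8 were higher under the TKO label, with Grhl2 at 0.213 and 6.15 CPM, the splicing factor Esrp1 at 1.71 and 17.1 CPM and Ovol2, which represses Zeb1 in epithelia, at 1.44 and 11.1 CPM. Grhl3 alone was higher under the WT label, at 4.96 and 0.926 CPM.

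Of 25 mesenchymal effectors, 18 were higher under the WT label and none under the TKO label. The smooth muscle actin Acta2 stood at 762 and 10.6 CPM, and the collagens Col5a2 and Col6a1 at 25.4 and 0.687 CPM and at 10.3 and 0.448 CPM. Pdgfra, the growth factor receptor of early mesoderm, was within 2-fold, at 36.3 and 24.5 CPM. Within Epcam-negative cells 21 of the 25 were higher under the WT label, against 12.6% of 14578 genes. The matrix mesenchyme kind had 2013 cells under the WT label and 4 under the TKO label, and its part in this count was not tested.

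Among 19 measured relatives of the factors, 7 were higher under the TKO label and 3 under the WT label. Alx1, a homeobox gene of cranial mesenchyme, stood at 0.267 and 32.7 CPM, Foxc2 at 0.747 and 10.1 CPM and Sox9 at 6.05 and 28.9 CPM, and Alx1 and Foxc2 are markers of the head mesoderm gate. Msx1, Msx2 and Tcf21 were the 3 higher under the WT label, at 274 and 39.5 CPM, 52.3 and 18.8 CPM, and 3.01 and 0.866 CPM. Of 19 genes of TGF-beta and BMP signalling, which induces Snail genes, 5 were higher under the WT label, with the coreceptor Tgfbr3 at 45.4 and 13.6 CPM, and Bmp7 alone was higher under the TKO label, at 5.04 and 27.4 CPM. Of 15 corepressors and regulators of Snail and Zeb proteins none passed 2-fold in either direction, the deacetylase Hdac1 standing at 37.2 and 69.0 CPM and the ubiquitin ligase gene Fbxl14 at 8.40 and 16.5 CPM.

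Of 13 measured cadherins and catenins, 5 were higher under the TKO label and 3 under the WT label, the latter being the P-cadherin Cdh3 (27.9 and 3.97 CPM), the endothelial Cdh5 (11.3 and 3.29 CPM) and Cdh6 (1.41 and 0.567 CPM). Of 10 intermediate filament genes, Lmna was the 1 higher under the WT label, at 60.9 and 9.53 CPM, while 3 were higher under the TKO label, Nes at 4.13 and 9.29 CPM, Synm at 0.347 and 1.40 CPM and Krt7 at 1.76 and 3.82 CPM. Krt8, an epithelial keratin, stood at 573 CPM in WT-labelled and 172 CPM in TKO-labelled Epcam-negative cells.

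Over the 18 kinds, the genes nearest to each member by Pearson r of log2(CPM + 1) were found among 8332 genes with at least 20 CPM in some kind. The kinds share 2 libraries and some have few cells, so r is a description. Snai2 was nearest to Runx1t1 (0.939), Loxl1 and Plxna4, Twist2 to Wnt2 (0.922), Adamts2 and Pgm2, and Snai2 and Twist2 had an r of 0.902 with each other, the highest of any 2 members. Twist1 was nearest to Anapc1 (0.917), Sept6 and Cttnbp2, and its r with Twist2 was 0.514. Snai1 was nearest to Rab11fip2 (0.867), and its r with Snai2 was 0.165. Prrx1 was nearest to Vps72 (0.931), the neural crest and dermomyotome gene Pax3 (0.904) and Foxc1 (0.892), which is a marker of the head mesoderm gate, and its r was 0.681 with Snai1 and -0.06 with Snai2. Zeb1 was nearest to Polr3gl (0.928) and the lymphangiogenic factor gene Vegfc, and had an r of 0.880 with Zeb2, whose nearest gene was Vamp3 (0.860). Vim was nearest to Igfbp4 (0.955), Cdh2 to Wdr6 (0.948) and the heparin-binding growth factor gene Mdk, and Cdh11 to Pja1 (0.918).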

How the data were processed

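The data are 2 single-cell RNA libraries at day 5, 1 per label. For either library the authors deposited raw counts with genes in rows and cells in columns, read here as UMI counts. Aligner, counting tool, chemistry and strand use: not given in the sources used here. Seurat 3 and mm10 stand in the submitters' processing notes without a role. The TKO-labelled header names 3224 barcodes over 3223 values per row, so cells were read by position. In 116 row names only the ending differs between the tables, none of a member, and rows were matched by position. The headers share 21 barcode sequences.

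Cells needed at least 500 genes, 1000 UMIs and at most 15% mitochondrial UMIs (3 and 26 removed). Scrublet in scanpy 1.11.5 (expected rate 0.06) marked 0.0683% and 0.0313% of cells, so it is taken not to have worked. UMIs were summed per library or kind and given as CPM with exact Poisson intervals, ratios with exact binomial intervals and shares with Clopper-Pearson intervals (scipy 1.17.1). Ratios over all genes needed 10 UMIs in both groups together. Kinds were gated on the number of markers detected: endothelial, matrix mesenchyme, mesothelium and definitive endoderm 3, contractile 5, head mesoderm and neural plate 2, visceral endoderm and pluripotent 4, and globin by 2% of UMIs. Thresholds were set from gate sizes and, where a kind had them, held-out genes, not from members. The interval code was tested on simulated data.

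The members, lists and tests were chosen with earlier results of these data known. Named are all members, Cdh1 and Epcam, up to 3 genes at either end of each related list with 20 or more UMIs, and 3 nearest genes per member with 200 or more UMIs. Prrx2, Mki67, Xist, S100a4, Thy1, Dnmt3b, Sox2, Lin28a, Myom1, Tnnc2 and Cmya5 were added as comparison or check genes after their values were seen. Alternatives changed the mitochondrial limit, doublet removal, scaling, Epcam line, gates, thinning depth and member list.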

Additional observations from a re-analysis of the deposited data

Results flagged for a closer look

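Twist2 went in opposite directions between kinds of cell: the TKO-labelled over WT-labelled ratio was 1.38 in Hand1 mesoderm (577 and 223 UMIs) and 0.415 in cells with no gate (59 and 96 UMIs), each with an interval clear of 1. Zeb2 did so as well, with 0.563 in endothelial cells, 0.681 in cells with no gate and 5.92 in pluripotent cells, where the WT-labelled value rests on 1 UMI and the TKO-labelled one on 56. With 1 library per label the differences between kinds were not tested.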

How the results depend on the processing

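No paired analysis was possible because each label has 1 single-cell library. Among the whole-library and Epcam ratios with an interval clear of 1, none changed direction under any alternative. Ratios between the libraries within a kind were not recomputed under the alternatives. With the median log2 ratio of all genes set to 0, and likewise without globin-gated cells, 1 member in place of 2 was at least 2-fold higher under the TKO label, since Twist1 went to 1.94. The share of all genes past 2-fold was not recomputed under the alternatives. The share of cells with 3 or more members was 12.9% in WT-labelled and 3.94% in TKO-labelled cells at 2000 UMIs, 61.0% and 39.4% without thinning, and 14.3% and 6.62% over the 9 members without Vim. The other counts and shares stayed within 1.5 times or their counting error (38 of 46). Single values moved beyond counting error in 23 of 80 library ratios, 33 of 160 Epcam ratios and 42 of 180 levels by kind. Depth limits the small WT-labelled kinds and the WT-labelled Epcam-positive cells, where 7 members had between 1 and 20 UMIs. Gates with many cells at the threshold (358 of 511 TKO-labelled head mesoderm cells had the minimum of 2 markers) are ranges and not types.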
